A study of Rattus norvegicus with 18 samples.

Results

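The miR-181 family was followed in small RNA from the gastrocnemius, a limb muscle of mixed fibre types, of male Brown Norway rats. Rows of the count table named miR-181a, miR-181b, miR-181c or miR-181d, on either arm of the hairpin, were taken as members, which gave 10 of 909 entries, 6 of them from miR-181a and miR-181b and 4 from miR-181c and miR-181d. Each of the 3 groups held 6 rats with 1 library per rat. Young AL rats were fed ad libitum (AL) and killed at 6 months, and old AL rats were fed ad libitum and killed at 28 months. Old CR rats were killed at 28 months after caloric restriction (CR) from 2 months of age at 55% of the ad libitum intake. All rats of the 3 groups were males of the same inbred strain with no other treatment named, and they were housed singly from the time the diets began. The study held no young CR group, so the effect of diet is measured among old rats only.

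MicroRNAs guide Argonaute proteins to messenger RNAs, and bases 2 to 8 of the mature strand, the seed, set most of the pairing. Each miRNA hairpin gives a 5p and a 3p strand, of which the more abundant one is usually the guide. The miR-181 family is conserved in vertebrates and is encoded in clusters that each pair an a with a b hairpin, or the c with the d hairpin. Its members are known for tuning antigen receptor signalling in lymphocytes, for a role in myoblast differentiation and for targets in mitochondrial biology, and miR-181c has been found inside mitochondria of heart muscle.

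The mature strands are shown because the members are nearly alike in sequence while their levels differ, and 9 of the 10 entries were matched by name to RefSeq sequences of build GRCr8. The seed is in capitals, and sequences run 5′ to 3′. The 5p strands were the following.
rno-miR-181a-5p: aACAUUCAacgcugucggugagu
rno-miR-181b-5p: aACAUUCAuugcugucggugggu
rno-miR-181c-5p: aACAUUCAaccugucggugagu
rno-miR-181d-5p: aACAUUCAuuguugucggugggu

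The 3p strands that were found in the reference follow, and miR-181b-2-3p is named only.
rno-miR-181a-1-3p: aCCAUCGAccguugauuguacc
rno-miR-181a-2-3p: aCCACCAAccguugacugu
rno-miR-181b-1-3p: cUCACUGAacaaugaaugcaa
rno-miR-181c-3p: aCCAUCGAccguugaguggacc
rno-miR-181d-3p: cCACCGGGggaugaauguca

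All 4 of the 5p strands carry the same seed, and no other rat mature strand of the RefSeq table has it. Counted from the 5′ end of the first strand named, miR-181b-5p and miR-181d-5p differ by the single substitution C12U. miR-181a-5p and miR-181c-5p are 1 edit apart, a missing base, with lengths of 23 and 22 bases and the same first 10 bases. Strands of the same hairpin cluster are less alike, with 5 edits between miR-181c-5p and miR-181d-5p and 3 substitutions, A9U, C10U and A21G, between miR-181a-5p and miR-181b-5p. The 3p seeds fall apart except that miR-181c-3p shares its seed with miR-181a-1-3p, from which it differs by U16G and U19G. A read of miR-181d-5p is therefore told from miR-181b-5p by a single base, and the sources do not state how reads matching several entries were counted.

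The clusters lie on 3 chromosomes of GRCr8, in each case on the plus strand. The miR-181a-2 and miR-181b-2 hairpins lie on chromosome 3 with 986 bases between them, within the spans of the nuclear receptor gene Nr6a1 and of a long noncoding RNA. The miR-181a-1 and miR-181b-1 hairpins lie on chromosome 13 with 61 bases between them, within the span of a long noncoding RNA. The miR-181c and miR-181d hairpins lie on chromosome 19 with 77 bases between them and outside every other annotated gene. Mature miR-181a-5p is at chr3:43025601-43025623 and again at chr13:52037081-52037103, so that reads of this strand cannot be assigned to either cluster. The same holds for miR-181b-5p, listed at chr13:52037263-52037285 and also contained in the miR-181b-2 hairpin of chromosome 3. Mature miR-181c-5p is at chr19:40888314-40888335 and miR-181d-5p at chr19:40888484-40888506. The labels name the build Rnor_6.0 for the reads, and no coordinate of that build is used here.

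The libraries held 34940346 to 74881378 counts in young AL, 48964459 to 82959871 in old AL and 47142870 to 83110905 in old CR. Levels are counts-per-million values (CPM), the count relative to the total of its library, scaled by TMM factors (trimmed mean of M values), and no length scaling was needed because each entry is a single short RNA, although adapter ligation favours some sequences over others. Old AL replicate 7 stood apart, with a TMM factor of 2.08 against 0.656 to 1.36 in the other old AL libraries, and the fold changes, ratio and spreads that it moves most are given with and without it. It also had the lowest miR-1-3p of old AL, at 36983 CPM against 55165 to 117179 CPM in the others. Muscle markers were abundant in all libraries, with a summed level of the 6 muscle miRNAs of 72647 to 186544 CPM. The hepatocyte miRNA miR-122-5p was at 0.549 to 39.1 CPM in young AL, and all old libraries lay above this, with 49.2 to 770 CPM for old AL and 101 to 185 CPM for old CR. The summed level of 5 leukocyte miRNAs was 123 to 170 CPM in young AL, 109 to 606 CPM in old AL and 114 to 238 CPM in old CR, with overlap, and without old AL replicate 8 the highest old AL value was 169 CPM. The part of blood, nerve or other cells in the miR-181 levels was not tested, and in whole muscle fewer cells of a type cannot be told apart from less RNA per cell.

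The family was dominated by miR-181a-5p. Averaged over the 18 libraries, miR-181a-5p was at 348.7 CPM, rank 54 of the 763 known miRNAs, and miR-181b-5p at 112.3 CPM, rank 76. The next levels were those of miR-181a-2-3p at 13.1 CPM and miR-181d-5p at 12.0 CPM, of which miR-181d-5p had the higher mean in young AL (18.4 against 14.9 CPM) and the lower one in old AL (8.69 against 12.2 CPM) and old CR (8.88 against 12.3 CPM). They were followed by miR-181a-1-3p at 4.58 CPM. miR-181c-5p at 1.17 CPM, miR-181c-3p at 0.794 CPM and miR-181b-2-3p at 0.539 CPM came next. In young AL both miR-181c strands lay wholly above miR-181b-2-3p, which ran from 0.375 to 0.670 CPM there, while in the old groups their ranges overlapped with it. miR-181b-1-3p at 0.0805 CPM rested on 90 counts in all. miR-181d-3p had 8 counts over the 18 libraries and was the entry left untested in each comparison. The c and d members are thus a small share of a family whose reads come mainly from miR-181a-5p, and miR-181c-5p values rest on 17 to 162 counts per library.

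The members were chosen by the measured fall of miR-181c and miR-181d in both old groups against young AL. The levels and fold changes of these 2 contrasts are a description of that choice and carry no test. rno-miR-181d-5p, the main product of the miR-181c/d cluster, ran in young AL from 15.0 to 24.5 CPM with a median of 17.6 CPM. In old AL it ran from 5.52 to 15.3 CPM with a median of 7.51 CPM, and in old CR from 6.25 to 11.3 CPM with a median of 8.90 CPM. Every old CR library was below every young AL library, while in old AL only replicate 7 reached into the young range. The log2 fold change of miR-181d-5p was −1.11 ± 0.223 (SE, n = 6 against 6) for old AL and −1.07 ± 0.175 for old CR, each against young AL, or levels of 0.465 and 0.478 times the young one.

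rno-miR-181c-5p, the rarer guide strand of the pair, ran from 1.56 to 3.73 CPM in young AL with a median of 1.87 CPM. Old AL libraries held 0.272 to 1.49 CPM with a median of 0.493 CPM, and old CR libraries 0.400 to 0.928 CPM with a median of 0.616 CPM. No library of either old group reached the lowest young one, although old AL replicate 7 at 1.49 CPM came close to it. The log2 fold change was −1.81 ± 0.377 for old AL and −1.77 ± 0.282 for old CR, which is the lowest ratio among the family, at 0.286 and 0.293 times young AL.

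rno-miR-181c-3p, the other strand of the same hairpin, was at 1.17 to 1.57 CPM in young AL, with a median of 1.22 CPM and the narrowest spread of the family in that group (SD of 0.152 on the log2 scale). In old AL it ran from 0.281 to 1.08 CPM with a median of 0.562 CPM, and in old CR from 0.382 to 0.573 CPM with a median of 0.533 CPM. Both old groups lay wholly below young AL. The log2 fold change was −1.12 ± 0.290 for old AL and −1.37 ± 0.170 for old CR. The 3 measurable strands of the c/d cluster thus had lower means in both old groups, while miR-181d-3p had 3, 4 and 1 counts in young AL, old AL and old CR and no fold is given.

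**Figure D1:**
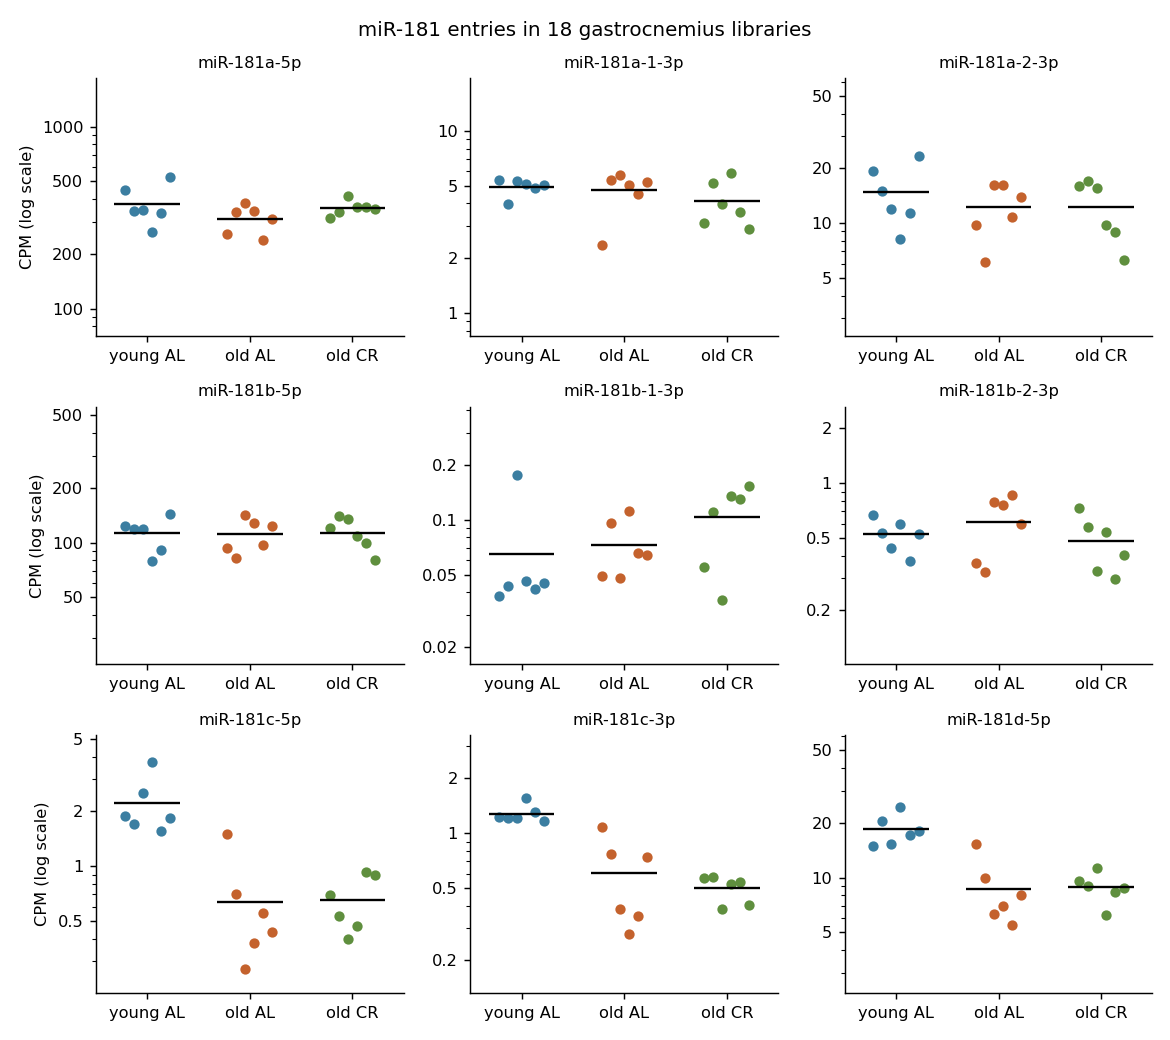
Level of 9 miR-181 entries in each of 18 libraries, in CPM on a log axis, by group (young AL, old AL, old CR). Points are libraries in the order of their replicate numbers and the black line is the group mean; in the bottom row the c and d strands lie lower in both old groups, and old AL replicate 7 is the leftmost orange point, at 15.3 CPM for miR-181d-5p.

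The strands of the a/b clusters overlapped between all groups. rno-miR-181a-5p, the most abundant strand, ran from 263 to 527 CPM in young AL with a median of 345.5 CPM. Old AL libraries held 237 to 381 CPM with a median of 324.4 CPM, and old CR libraries 314 to 415 CPM with a median of 355.8 CPM. The 3 groups overlapped, and the log2 fold change against young AL was −0.28 ± 0.194 for old AL and −0.088 ± 0.154 for old CR. rno-miR-181b-5p, which differs from miR-181d-5p by C12U, had group means (± SD, n = 6 each) of 112.4 ± 23.5 CPM for young AL, 110.9 ± 23.1 CPM for old AL and 113.5 ± 22.5 CPM for old CR. Its log2 fold changes were −0.018 ± 0.199 and 0.0067 ± 0.179.

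The 3p strands of the a/b clusters also overlapped between groups. miR-181a-2-3p, which marks the chromosome 3 cluster, was at 14.9 ± 5.62, 12.2 ± 4.01 and 12.3 ± 4.51 CPM in young AL, old AL and old CR. miR-181a-1-3p, which marks the chromosome 13 cluster, was at 4.94 ± 0.505, 4.71 ± 1.22 and 4.10 ± 1.18 CPM. miR-181b-2-3p was at 0.525 ± 0.106, 0.614 ± 0.226 and 0.479 ± 0.167 CPM. miR-181b-1-3p, with 2 to 13 counts per library, was at 0.0653 ± 0.0549, 0.0726 ± 0.0260 and 0.104 ± 0.0473 CPM and its level is too shallow to order the groups. The share of miR-181a-2-3p among the miR-181a 3p counts was 73.5%, 71.2% and 73.8% in the 3 groups, with SDs of 7.76, 9.36 and 7.85 percentage points.

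Calls were made with edgeR's quasi-likelihood test, and needed a fold change of 1.5 or more and a p of 0.05 or less after adjustment over all entries tested. In old AL against young AL, 2 of the 9 members tested were called lower, miR-181c-5p and miR-181d-5p, and none higher, where 2.32% of all 732 entries tested were called lower. Groups without overlap were found for 2 of the 9, miR-181c-5p and miR-181c-3p, where 2.6% of all entries tested had every old AL library below every young AL library. In old CR against young AL, 3 of 9 were called lower, the same pair and miR-181c-3p, and none higher, where 5.21% of all 730 entries tested were called lower and 4.11% higher. The same 3 had no overlap, where 2.6% of all entries did. Since the family was picked for these falls, the counts are set beside the background and nothing is read from them. The median log2 fold change over the members was −0.28 and −0.27, and over all entries tested 0.065 and 0.076. Both comparisons share the young AL libraries.

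The calls in old AL were fragile to the choice of libraries, while the log2 fold changes stayed negative. Over the 12 fits that left out a library, they ran from −2.24 to −1.62 for miR-181c-5p and −1.33 to −1.02 for miR-181d-5p. For miR-181c-3p they ran from −1.34 to −0.98. Leaving out replicate 4 or 5 of young AL, or replicate 9, 11 or 12 of old AL, gave 0 calls, and leaving out replicate 3 (young AL) or 10 (old AL) gave 1. With replicate 7 of old AL left out there were 3, and the log2 fold changes of miR-181c-5p, miR-181d-5p and miR-181c-3p became −2.24, −1.33 and −1.34. In old CR against young AL the 3 calls stood in each of the 12 fits that left out a library. Since the strands were picked for their fall, these counts describe how the calls depend on single libraries and are no support for it.

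**Figure D2:**
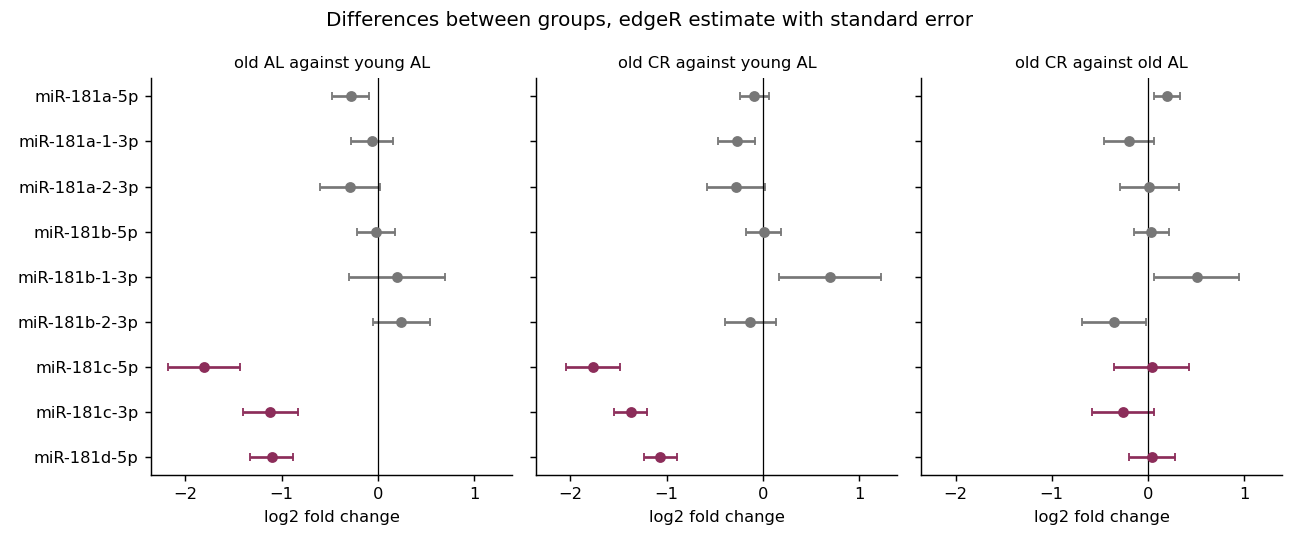
log2 fold change of 9 miR-181 entries in the 3 comparisons, edgeR estimate with its standard error; c and d strands are in purple and a and b strands in grey. In the first 2 panels, which chose the family, the 3 purple points lie between −1.81 and −1.07, and in the third panel they lie between −0.26 and 0.043.

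The comparison of old CR with old AL asks whether restriction moved the family among rats of the same age. It did not itself choose the members, but it uses the old libraries of the 2 contrasts that did. Its p-values for the c and d strands are therefore not independent of the choice. None of the 9 members tested was called by edgeR, where 0.272% of all 736 entries tested were called in either direction. At an unadjusted p under 0.05 there were 88 entries over the whole table and 0 members, and DESeq2 called 19 entries and 0 members. The log2 fold change of miR-181d-5p was 0.043, with a 95% interval from −0.48 to 0.56 and an edgeR adjusted p of 0.987. That of miR-181c-5p was 0.038, with an interval from −0.81 to 0.89 and an adjusted p of 0.998 by edgeR. These intervals leave room for a change of either sign, and the data do not show that the 2 old groups are alike.

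For miR-181c-3p the difference between old CR and old AL was −0.26 (95% interval −0.96 to 0.44, edgeR adjusted p = 0.827). The largest excess in old CR for a well counted strand was that of miR-181a-5p, at 0.20 (interval −0.091 to 0.49, edgeR adjusted p = 0.557). For miR-181b-5p it was 0.036, with an interval from −0.36 to 0.43. Without old AL replicate 7 the values for miR-181c-5p, miR-181d-5p and miR-181c-3p were 0.46, 0.26 and −0.029, with edgeR adjusted p of 0.577, 0.593 and 0.997. The median of the members was 0.036, beside 0.0069 for all entries tested. The SD on the log2 scale in old AL and old CR was 0.843 and 0.497 for miR-181c-5p, 0.532 and 0.283 for miR-181d-5p, and 0.761 and 0.255 for miR-181c-3p. Without replicate 7 the old AL values were 0.515, 0.326 and 0.649, so that the wider spread of miR-181c-5p and miR-181d-5p in old AL rested mostly on that library.

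The ratio between clusters was also taken within each library, where the scaling between libraries cancels. The log2 of the c and d 5p strands over the a and b 5p strands, each pair averaged on the log scale, had means (± SD, n = 6 each) of −5.02 ± 0.587 for young AL, −6.42 ± 0.855 for old AL and −6.41 ± 0.394 for old CR. The difference from young AL was −1.40 (SE 0.423) in old AL, or −1.69 without replicate 7, and −1.38 (SE 0.288) in old CR, and old CR was higher than old AL by 0.019 (SE 0.384), or by 0.30 without replicate 7. Because this score was built from the members it has no p.

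Put as a share of all counts that carry the 5p seed, miR-181c-5p and miR-181d-5p together made up 2.86% to 7.61% in young AL, with a median of 3.94%. Old AL libraries had shares of 1.25% to 4.59% with a median of 1.85%, and old CR libraries 1.42% to 2.32% with a median of 2.02%. All old CR libraries and 5 of the 6 old AL libraries were below the lowest young one. Old AL replicate 7 had a share of 4.59% (95% Wilson interval 4.39% to 4.81%), inside the young range, and young AL replicate 4 had the highest at 7.61% (7.21% to 8.03%). The intervals cover counting error only and not the spread between rats. Where several reads stem from the same molecule, they are too narrow for counting error as well.

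The library with the highest c/d share in each group also had the highest levels of 3 of the 6 listed muscle miRNAs in that group. They are miR-206-3p, known from regenerating and slow muscle, and miR-208b-3p and miR-499-5p, which are encoded within slow myosin heavy chain genes. In young AL replicate 4 they were at 13869, 60.7 and 694 CPM, where the other young libraries held at most 9752, 13.0 and 248 CPM. In old AL replicate 7 they were at 18522, 31.4 and 1142 CPM, and the other old AL libraries held at most 8488, 6.06 and 388 CPM. In old CR replicate 13, with a c/d share of 2.32%, they were at 15077, 16.0 and 496 CPM, against at most 8471, 8.54 and 206 CPM in the rest. The other 3 listed muscle miRNAs did not follow this pattern. Of its groups, miR-1-3p was highest in young AL replicate 4 (106697 CPM) and old CR replicate 13 (150301 CPM). In old AL replicate 7 it was lowest (36983 CPM). miR-133a-3p was lowest in young AL replicate 4 (9244 CPM). Neither miR-133a-3p nor miR-133b-3p was the highest of its group in any of these 3 libraries. In old CR the match depended on the measure. By the log2 ratio of c/d to a/b 5p strands, replicate 18 was highest in old CR, at −5.89 against −6.22 in replicate 13. In replicate 18 miR-206-3p and miR-499-5p were the lowest of old CR, at 2898 and 104 CPM, and miR-208b-3p was at 4.30 CPM. In young AL and old AL the same library was highest by the share and by the ratio. Between groups none of miR-206-3p, miR-208b-3p and miR-499-5p was called by edgeR, where 24 of 732, 68 of 730 and 2 of 736 entries were. The part of fibre type or of regenerating fibres in the miR-181 levels was not tested.

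**Figure D3:**
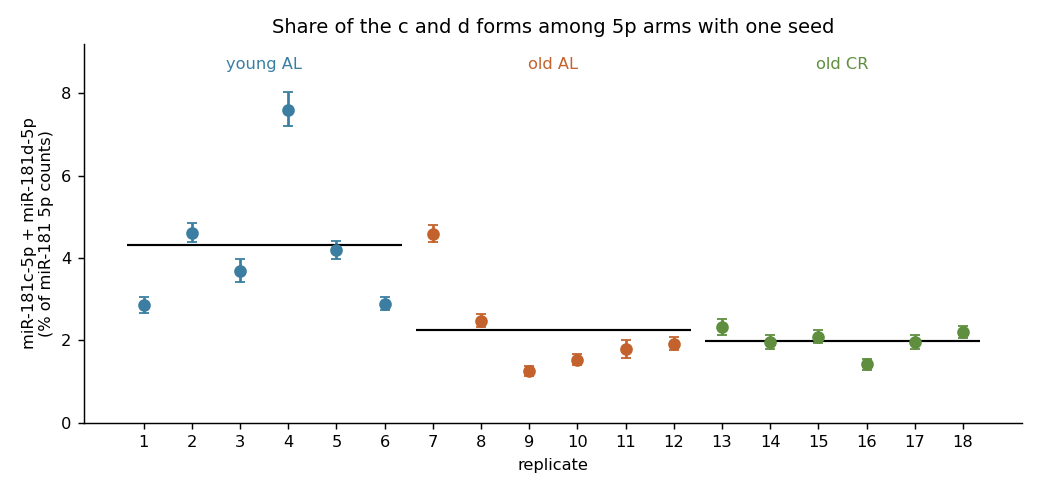
Share of miR-181c-5p plus miR-181d-5p in the summed counts of the 4 miR-181 5p strands with the same seed, in percent, for each of 18 libraries with 95% Wilson intervals; black lines are group means of 4.31%, 2.26% and 1.99%. Old AL replicate 7 lies at 4.59%, among the young AL libraries, and the other old libraries are at or under 2.47%.

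The sum over the seed family overlapped between the groups. The 4 strands with the common seed added up to 510.7 ± 113.2 CPM for young AL, 431.6 ± 69.9 CPM for old AL and 480.3 ± 43.7 CPM for old CR (SD), and their ranges overlapped. miR-181a-5p supplied 73.6%, 72.0% and 74.4% of the sum and miR-181b-5p 22.1%, 25.7% and 23.6%. Relative to miR-181b-5p, the miR-181d-5p count was 17.5% ± 7.13 in young rats, 8.44% ± 4.75 in old AL rats and 8.01% ± 1.83 in old CR rats (SD, n = 6). Over single libraries this ratio varied from 4.48% to 30.9%, while the 2 strands differ by only C12U.

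Within the c/d cluster the ratio of the 2 strands with the 5p seed had a higher mean in the old groups, a difference that was not tested. Each count of miR-181c-5p came with 8.88 ± 2.44 counts of miR-181d-5p for young AL, 15.8 ± 5.22 for old AL and 15.2 ± 7.04 for old CR, and the ranges overlapped. Between the strands of the miR-181c hairpin, the 5p to 3p ratio was 1.70 ± 0.449, 1.09 ± 0.401 and 1.34 ± 0.532. The miR-181a 5p to 3p ratio was higher, at 19.2 ± 1.09, 19.3 ± 5.32 and 23.9 ± 8.64, with both miR-181a 3p strands summed. The 5p to 3p ratio of the miR-181c hairpin was thus far below that of miR-181a in each group.

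Across libraries the members moved together to differing degrees. After subtracting each group's mean, the log2 levels of miR-181a-2-3p and miR-181b-5p had a Pearson r of 0.95 over the 18 libraries (Spearman rho 0.93), and r was 0.92 without the 2 libraries farthest from the median. The r of miR-181b-5p, which both a/b clusters can give, was 0.35 with miR-181a-1-3p, the strand of the chromosome 13 cluster. In the c/d cluster r was 0.60 for miR-181c-5p with miR-181d-5p, but 0.18 without the 2 farthest libraries, so that it rests on them. It was 0.65 for miR-181c-3p with miR-181d-5p, and 0.46 without the farthest pair. Between the a/b and c/d clusters r was −0.28 for miR-181b-5p with miR-181d-5p, −0.54 for miR-181a-5p with miR-181c-5p, −0.67 for miR-181b-5p with miR-181c-5p and −0.25 for miR-181a-5p with miR-181d-5p. These are descriptions without a p, as the points share library scaling and the values of miR-181c rest on few counts.

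**Figure D4:**
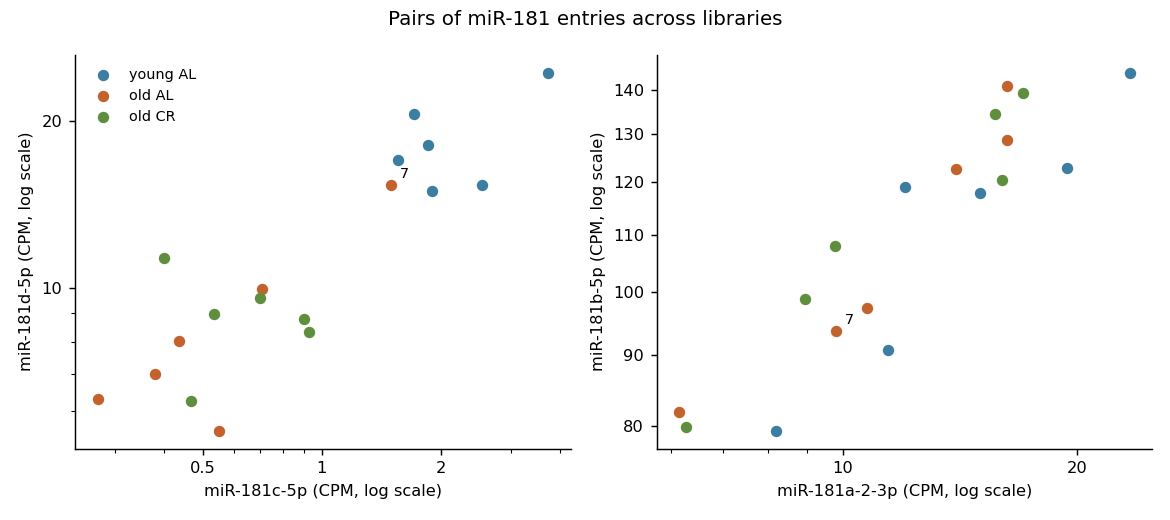
Levels of paired entries in 18 libraries, CPM on log axes, coloured by group: miR-181d-5p against miR-181c-5p (left) and miR-181b-5p against miR-181a-2-3p (right). On the left the old libraries lie at lower values of both strands, apart from old AL replicate 7 (marked 7), and on the right the 3 groups are mixed along a common line.

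Some members had nearly the same counts as other entries of the table. miR-3570, annotated on the minus strand at the coordinates of miR-181a-1-3p, chr13:52037121-52037142, is its exact reverse complement. Its counts were within 98.2% to 101% of those of miR-181a-1-3p in all 18 libraries and never differed by more than 4 counts. The deposited counts of miR-181a-1-3p therefore cannot be told apart from those of the antisense entry. A predicted candidate miRNA of the table had 102% to 105% of the miR-181b-5p count in 12 libraries and 0 in the other 6. Another candidate had 91.5% to 99.4% of the miR-181c-5p count in 2 libraries and 0 in 16. The zeros of the first candidate fell in 2 libraries of each group.

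The nearest miRNA cluster to miR-181c and miR-181d is that of miR-23a, miR-27a and miR-24-2, whose members are known in muscle for targets in atrophy and differentiation. It lies on the opposite strand, and 28.4 kb separate the miR-23a hairpin from the miR-181c hairpin. Of its 6 entries, 0 were called in any of the 3 comparisons, and the lowest edgeR adjusted p were 0.203, 0.198 and 0.392. Of all entries tested, 24 of 732, 68 of 730 and 2 of 736 were called there, so 0 of 6 says little. The median log2 fold change of these entries was −0.21 in old AL and −0.32 in old CR against young AL, beside 0.065 and 0.076 for all entries. Against young AL, 4 were lower and 2 higher in old AL, and all 6 were lower in old CR. The value nearest to those of the c/d strands in old AL was that of miR-24-2-5p, at −0.63 ± 0.280 with an edgeR adjusted p of 0.203. In old CR it was that of miR-23a-5p, at −0.68 ± 0.580 (edgeR adjusted p = 0.543), on 2 to 8 counts per old CR library. miR-23a-3p, the most precisely measured of the 6 entries, was at 0.18 ± 0.129 in old AL and −0.26 ± 0.123 in old CR. Between old CR and old AL it was at −0.45 ± 0.147 (edgeR adjusted p = 0.392). miR-24-3p, at −0.20 and −0.17 against young AL, also has a second locus and so is not particular to this cluster. Whether the c/d strands differ from these neighbours was not tested, since the c/d strands were chosen for their fall.

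**Figure D5:**
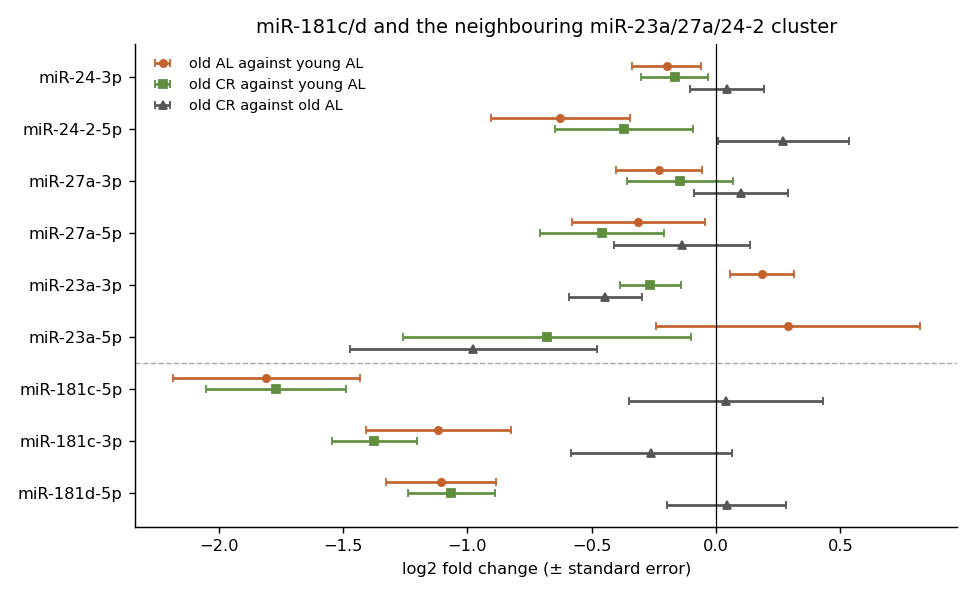
log2 fold change with its standard error for the 6 entries of the miR-23a/27a/24-2 cluster (above the dashed line) and 3 strands of the miR-181c/d cluster (below it), in the 3 comparisons. In old AL and old CR against young AL the neighbours lie between −0.68 and 0.29 and the c/d strands between −1.81 and −1.07.

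The miRNAs outside the family whose log2 level followed the members most closely over the 18 libraries, group differences included, were taken from 315 known miRNAs with a mean of at least 1 CPM. For miR-181d-5p they were miR-128-3p (r = 0.78), miR-3578 (0.76), miR-369-5p (0.76), miR-22-3p (0.71) and miR-676 (0.68). Once group means were removed, r stayed at 0.68 for miR-128-3p and was 0.16 for miR-369-5p. For miR-181c-5p they were miR-3578 (0.84), miR-369-5p (0.84), miR-136-5p (0.76), miR-22-3p (0.75) and miR-411-5p (0.75), all with r of 0.31 to 0.44 after group means were removed. miR-181a-5p had a different set, led by miR-30d-5p (0.81), a miRNA of the abundant miR-30 family, followed by miR-378a-5p (0.66), miR-3557-3p (0.65), miR-3549 (0.65) and miR-196c-5p (0.63). For this last set r was 0.58 to 0.79 after group means were removed. miR-3578 and miR-369-5p had almost the same mean level, 1.21 and 1.22 CPM, and may not be independent entries.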

How the data were processed

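The authors isolated small RNA, prepared libraries with a strand-specific NEBNext kit, removed adapters (Cutadapt 1.2.1) and poor-quality ends (Sickle), dropped reads under 12 nucleotides, and identified known and candidate miRNAs with miRDeep2. The submitters' processing notes also name Bowtie2 2.4.0 and Rnor_6.0, without a role. The deposited values are raw counts per miRNA, obtained by the authors with featureCount and not normalized, and 0 columns were left unused. How strand and multiply matching reads were treated in the counting is not stated in the sources at hand.

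Counts were compared with edgeR 4.0.16 in R 4.3.3 (quasi-likelihood test, robust, two-sided, TMM) separately for each pair of groups (12 libraries), for entries with at least 10 counts in total, with Benjamini-Hochberg adjustment over all of them. DESeq2 1.42.0, the tool of the study's methods, was an alternative. Log2 levels used a prior count of 0.5, and the SE of a fold change is its size over the square root of F. The fits were also run on counts simulated with their own fitted dispersions, which checks the code and not the calls in these data. No pair of libraries of the same group agreed within counting error (the lowest chi-square per degree of freedom was 1214 among 45 pairs). Depth limits precision most for miR-181d-3p, miR-181b-1-3p and miR-181b-2-3p, and then for the miR-181c strands.

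The named entries are all family members, candidates sharing their counts (within 10% or 2 counts), the 5 miRNAs most like miR-181d-5p, miR-181c-5p and miR-181a-5p by Pearson r, and up to 4 members of each list. The lists hold neighbours of miR-181c/d, miRNAs tied to mitochondria or inflammation, and markers of muscle, leukocytes, endothelium, smooth muscle, erythroid, neural and liver cells. The members and lists were chosen with earlier results of these data known. Nothing in the labels ties libraries to separate sequencing batches, and which library ran on which lane is not stated. The numbers in the column names run in separate blocks by group, and their meaning is not stated. A handling step that followed these blocks could not be told apart from group. The p-values set group differences against the spread between rats within groups. Alternatives were other scalings, filters and tools, and leaving out libraries. Sequences and positions are from RefSeq (GRCr8). The RT-qPCR and cell culture experiments are not analysed here.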

Additional observations from a re-analysis of the deposited data

Results flagged for a closer look

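In 30 groups of 6 libraries the highest and lowest log2 levels were compared with the rest by Dixon's ratio at the 95% level, and 5 stood out, where chance gives about 1 in 20. For miR-181c-3p, young AL replicate 4 was high at 0.65 (log2 CPM), with the nearest library at 0.39. The same library was high in the log2 ratio of the c/d to the a/b 5p strands, at −3.92 against −5.02 in the nearest one. Leaving it out gave 0 calls among the members in old AL against young AL. For miR-181a-1-3p, old AL replicate 7 was low at 1.25 with the nearest library at 2.17, and young AL replicate 2 was low at 1.99 with the nearest at 2.28. For miR-181b-1-3p, young AL replicate 3 was high at −2.43 with the nearest at −4.21, a value that rests on 6 counts.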

How the results depend on the processing

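The same 3 entries were called in old CR against young AL under each alternative run, and none was called in old CR against old AL. The calls against young AL concern strands picked for their fall, so their number under each setting is a description only. In old AL against young AL the 2 calls became 0 with library totals alone, 0 with totals that omit the miR-1 family and 1 without young AL replicates 1 and 2, whose columns are numbered out of sequence with the rest, and 0 to 3 when single libraries were left out. There were 3, with miR-181c-3p added, under upper-quartile factors, DESeq2, filterByExpr, the single fit to the 3 groups and known miRNAs only. With library totals alone miR-181c-5p and miR-181d-5p were at −1.35 and −0.75 there. The number of entries called over the whole table moved from 24 to 0 and 13 under these scalings, and to 86 with DESeq2, 37 with filterByExpr, 38 in a single fit to the 3 groups and 53 among known miRNAs only, and in old CR against young AL from 68 to 110 with DESeq2. Library totals shifted the median of all entries to 0.23 in old AL against young AL and to −0.27 in old CR against old AL, and values under that scaling are to be read against this shift. The cause of these differences was not tested.

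Small positive values changed sign between old CR and old AL. With upper-quartile factors miR-181a-2-3p, miR-181b-5p, miR-181c-5p and miR-181d-5p were at −0.090, −0.072, −0.063 and −0.017. With library totals these were −0.22, −0.19, −0.50 and −0.41, and miR-181a-5p was at −0.019. With totals without the miR-1 family they were −0.085, −0.066, −0.13 and −0.11. With filterByExpr miR-181a-2-3p, miR-181c-5p and miR-181d-5p were at −0.012, −0.018 and −0.0045. Leaving out single libraries gave −0.12 to 0.15 for miR-181a-2-3p, −0.038 to 0.12 for miR-181b-5p, −0.12 to 0.46 for miR-181c-5p and −0.080 to 0.26 for miR-181d-5p. No paired analysis was possible because the groups share no replicate number. The c/d to a/b ratio moved by less than the spread between libraries in each alternative.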

Other observations

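The other lists were described by the same fits. Over all entries tested, calls in either direction numbered 24 of 732 in old AL against young AL and 68 of 730 in old CR against young AL. Between old CR and old AL they numbered 2 of 736. At these shares, 0 calls in a list of a few entries says little about the list. Of 4 miRNAs known for inflammation, 4 had positive log2 fold changes in old AL against young AL and 0 were called, with a median of 0.70 beside 0.065 for all entries. miR-146a-5p, a brake on innate immune signalling, was at 0.74 ± 0.194 (edgeR adjusted p = 0.0652), and miR-21-5p at 0.66 ± 0.253 (edgeR adjusted p = 0.153). Between old CR and old AL all 4 were negative, with a median of −0.44 and 0 calls. For miR-155-5p these signs went against its medians, which were 8.23 CPM in young AL, 7.00 CPM in old AL and 10.3 CPM in old CR. Its old AL maximum was 79.8 CPM. The rest of the inflammation list had the highest median in old AL. Of 8 miRNAs tied to mitochondria, 0 were called in any comparison, with medians of −0.0011, 0.051 and 0.10. Of 6 skeletal muscle miRNAs, 5 leukocyte, 2 endothelial, 2 smooth muscle and 3 erythroid miRNAs, 0 were called in any comparison. Their medians in old AL against young AL were 0.079, 1.16, −0.25, 0.034 and 0.25. Without old AL replicate 8, whose summed leukocyte level was 606 CPM against 109 to 169 CPM in the other old AL libraries, the leukocyte median was −0.20, an alternative chosen after seeing the data. The median summed level of these 5 miRNAs was 139.7 CPM in old AL and 157.2 CPM in young AL.

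Of 4 neural miRNAs, 2 were called higher in old CR against young AL, with a list median of 1.94, where 4.11% of all entries tested were called higher. They were miR-9a-5p at 2.27 ± 0.485 (edgeR adjusted p = 0.0133) and miR-124-3p at 2.74 ± 0.614 (edgeR adjusted p = 0.0173). The hepatocyte miRNA miR-122-5p was called higher in the same comparison, at 3.53 ± 0.922 (edgeR adjusted p = 0.0329), and was at 4.36 ± 1.16 in old AL against young AL (edgeR adjusted p = 0.0710). Between old CR and old AL none of these 3 was called.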
